A study of Mus musculus with 2 samples.

Results

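The megakaryocyte-lineage cells described here are 93 single cells of mouse bone marrow that had been cultured beside human mesenchymal stem/stromal cells (MSCs). They were chosen from measured values, as kept cells of the coculture library with at least 3 unique molecular identifiers (UMIs, 1 per captured RNA molecule) of Gp1bb. They also had fewer than 10 UMIs summed over the 6 matrix genes Col1a1, Col1a2, Col3a1, Dcn, Lum and Sparc, and less than 1% of their UMIs in the eosinophil granule genes Prg2, Epx and Prg3. The 93 cells were 3.09% of the 3005 kept coculture cells (95% Clopper-Pearson interval 2.51% to 3.78%), out of 4822 kept cells in the series. Of the 1817 kept cells of the library without coculture, 0 met the rule, which allows a share of up to 0.165%. All intervals here cover counting error only.

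The series holds 1 droplet library per group. The first group is CD11bmid Ly6Cmid cells sorted from marrow cultured with GM-CSF at 40 ng/mL for 5 days, with human MSCs in culture inserts that kept them apart from the marrow cells. The second group is CD11bhi Ly6Chi cells sorted from marrow cultured with the same GM-CSF treatment and no MSCs. Both came from mice of genotype C57BL/6NCrljOri, H-2b. The coculture medium was DMEM and the medium named for marrow culture was RPMI1640. The exact medium of the culture without MSCs is not given in the labels. Coculture, sort gate, library and any difference in medium cannot be told apart between the groups. The age and number of mice are not given in the labels. The marrow had been depleted of red cells by lysis before culture. With 1 library a group and cells that are not replicates, the values below carry no test, and none is a finding about the coculture itself.

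Megakaryocytes are large bone marrow cells that shed platelets. They arise from stem and progenitor cells and are driven by transcription factors such as GATA1, FLI1 and RUNX1. They fill alpha granules with proteins such as platelet factor 4, place integrin αIIbβ3 and the glycoprotein Ib-IX-V receptor on their surface, and become polyploid by repeating DNA synthesis without completing cell division. Gp1bb, the gene of the rule, codes for the beta chain of glycoprotein Ib, which together with the products of Gp1ba, Gp9 and Gp5 binds von Willebrand factor.

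The promoters of the 4 genes of that complex, and of Pf4 and Treml1, are shown because these genes are the core of the cells' profile. Each runs 5′ to 3′ on the strand of its gene, 250 bases before to 50 after the RefSeq start, in build GRCm38.p6. Capitals mark GATA motifs (AGATAA as well as AGATAG, and TGATAA as well as TGATAG) and the ETS motif GGAAG, searched on both strands; the motifs share no base in these windows.
Gp1bb, chr16:18622354-18622653, minus strand: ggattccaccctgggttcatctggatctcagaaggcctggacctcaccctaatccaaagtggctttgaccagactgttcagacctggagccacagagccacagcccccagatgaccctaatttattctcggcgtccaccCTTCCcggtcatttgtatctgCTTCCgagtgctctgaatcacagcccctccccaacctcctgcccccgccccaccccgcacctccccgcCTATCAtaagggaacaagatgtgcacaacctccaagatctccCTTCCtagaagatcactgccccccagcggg
Gp1ba, chr11:70638872-70639171, plus strand: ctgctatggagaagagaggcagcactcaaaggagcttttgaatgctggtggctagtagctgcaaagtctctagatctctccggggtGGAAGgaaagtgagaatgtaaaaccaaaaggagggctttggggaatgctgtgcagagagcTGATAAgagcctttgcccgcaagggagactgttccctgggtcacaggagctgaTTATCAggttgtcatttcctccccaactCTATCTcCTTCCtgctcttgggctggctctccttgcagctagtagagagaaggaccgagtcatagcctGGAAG
Gp9, chr6:87777820-87778119, plus strand: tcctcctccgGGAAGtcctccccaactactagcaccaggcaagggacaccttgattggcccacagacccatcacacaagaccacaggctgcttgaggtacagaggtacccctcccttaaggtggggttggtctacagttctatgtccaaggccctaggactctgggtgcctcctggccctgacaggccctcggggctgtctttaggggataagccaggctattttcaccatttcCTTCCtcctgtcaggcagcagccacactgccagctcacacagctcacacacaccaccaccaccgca
Gp5, chr16:30310732-30311031, minus strand: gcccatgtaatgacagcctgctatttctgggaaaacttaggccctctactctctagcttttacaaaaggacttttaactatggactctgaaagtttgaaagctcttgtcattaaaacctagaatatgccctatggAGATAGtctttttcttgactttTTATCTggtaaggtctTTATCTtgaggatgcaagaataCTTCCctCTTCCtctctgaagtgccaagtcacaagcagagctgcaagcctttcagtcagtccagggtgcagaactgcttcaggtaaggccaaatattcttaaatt
Pf4, chr5:90772185-90772484, plus strand: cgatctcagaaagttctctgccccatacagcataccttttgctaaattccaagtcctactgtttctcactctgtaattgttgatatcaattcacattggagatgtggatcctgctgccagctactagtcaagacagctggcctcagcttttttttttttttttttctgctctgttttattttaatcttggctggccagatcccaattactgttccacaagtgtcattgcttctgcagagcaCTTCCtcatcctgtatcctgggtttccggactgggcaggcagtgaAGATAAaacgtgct
Treml1, chr17:48359666-48359965, plus strand: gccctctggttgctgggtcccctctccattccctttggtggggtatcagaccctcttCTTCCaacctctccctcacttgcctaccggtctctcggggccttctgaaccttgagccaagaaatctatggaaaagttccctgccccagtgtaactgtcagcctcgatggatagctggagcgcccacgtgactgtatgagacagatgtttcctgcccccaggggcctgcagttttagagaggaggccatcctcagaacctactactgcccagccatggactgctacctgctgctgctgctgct
The Gp1bb window held 1 GATA and 3 ETS matches, the Gp1ba window 3 and 3, the Gp9 window 0 and 2, the Gp5 window 3 and 2, the Pf4 window 1 and 1, and the Treml1 window 0 and 1. Among all 32851 promoters of the same length, 29.8% held a GATA match, 71.4% an ETS match and 20.3% both. Of the 20 genes that led the 93 cells by ratio, 14 had a listed promoter. For these only the first start of each gene was used, whereas the background took all promoters. A GATA match stood in 8 of the 14 (57.1%), an ETS match in 10 (71.4%) and both in 5 (35.7%). A match describes letters and not a bound site.

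The deposited coculture library held 3134 barcodes and 29217182 UMIs, and the library without coculture 2180 barcodes and 28294186 UMIs. Barcodes with under 500 genes or over 10% mitochondrial UMIs were set aside, which left the 3005 and 1817 cells. The libraries shared 4 barcodes, of which 2 were kept in both. The 93 cells were deeply covered, with a median of 23431 UMIs (4156 to 62208) and 5113 genes, against 5794 UMIs (696 to 64954) and 1912 genes in the 2912 other coculture cells, a 4.04-fold difference in UMIs. They held 7.49% of all UMIs in the kept coculture cells. Their median mitochondrial share was 1.27%, against 1.53% in the other cells. With each cell thinned to 2000 UMIs, the median was 1068 genes in the megakaryocyte-lineage cells and 952 in the other cells, from which 265 shallower cells were left out. Levels below are CPM, the UMIs of a gene per 1000000 UMIs, both summed over the cells of a group, and ratios are log2 of megakaryocyte-lineage over comparison cells. No doublet caller was run, and a part of doublets in the high UMI counts was not tested.

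Gp1bb, which set the members, ran from 3 to 67 UMIs in the 93 cells with a median of 11, whereas 2887 of the other coculture cells had none, 20 had 1 and 5 had 2. Counts showed no gap at the minimum, with 8 cells at 3 UMIs and 6 at 4. The eosinophil and matrix limits removed 0 of the cells that passed the Gp1bb minimum. The 93 cells held 1739 Gp1bb UMIs, against 30 in all other coculture cells together. Just inside the minimum, the 8 cells with 3 Gp1bb UMIs had 341 CPM of Itgb3, 3987 of Pf4 and 491 of Cd34. Just outside it, the 5 cells with 2 UMIs had 146 CPM of Itgb3, 4473 of Pf4 and 419.9 of Cd34. Cells on both sides of the minimum thus carried the same megakaryocyte genes.

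The label was checked against markers that the rule did not use. Itgb3, the β3 integrin chain, Treml1, a receptor stored in platelet granules, Pf4 and the progenitor antigen Cd34 were all present in 76 of the 93 cells. Another 11 cells had 3 of these 4 genes, 5 had 2, and 1 had none. When all kept coculture cells were clustered on their variable genes, 92 of the 93 fell in 1 cluster of 162 cells. Its leading genes included Robo3, Serpina3b, Clca3a1, Treml1 and Gp1bb. Gp1bb was not removed before clustering, so the clusters are not independent of the rule. The same 92 cells stayed together at lower and higher resolution and with cell cycle genes left out. The cell with none of the 4 markers was among these 92, and like all 93 it had UMIs of Itga2b, the αIIb integrin chain. The other 91 cells of that cluster had at least 2 of the 4 markers. The member outside the cluster also had 2 of them, so 2 markers alone do not settle the label of a cell.

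The member outside that cluster was mixed. It had 3 Gp1bb UMIs among 27492 UMIs and 2 of the 4 markers, Itgb3 and Cd34, but no Pf4 and no Treml1, and lay in a cluster led by basophil genes. Its Mcpt8, a basophil protease gene, was at 1491 CPM and its Cpa3, a mast cell and basophil carboxypeptidase gene, at 1928 CPM. This 1 cell held 75.9% of the Mcpt8 UMIs, 85.5% of the Cpa3 UMIs, 86.8% of the Tyrobp UMIs and all Ccr2 UMIs counted in the 93 cells. Without it, Cpa3 stood at 4.18 CPM and Mcpt8 at 6.04 CPM in the 92 others. It stays in the counts below, since the rule includes it.

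**Figure D1:**
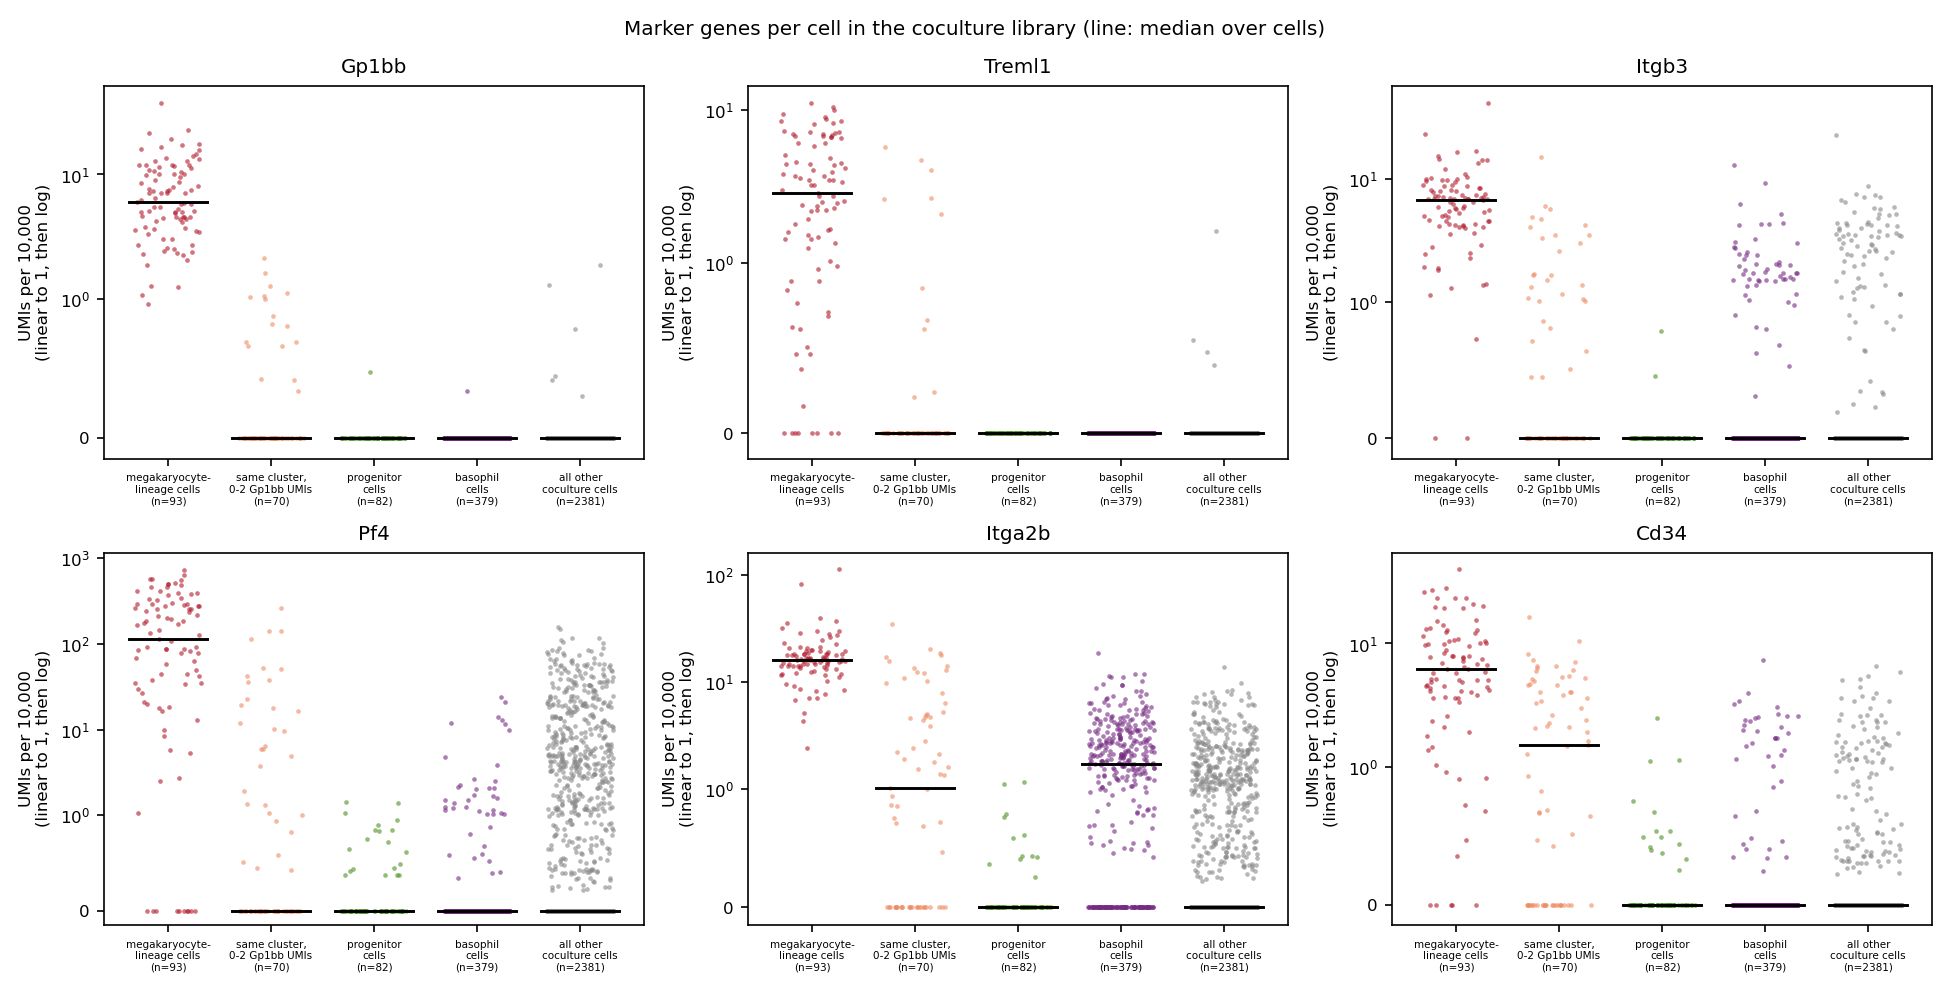
UMIs per 10,000 of each cell (vertical axis, linear to 1 and logarithmic above) for 6 genes in the 93 megakaryocyte-lineage cells, 70 cells of the same cluster under the Gp1bb minimum, 82 progenitor cells, 379 basophil cells and the 2381 remaining coculture cells. Each point is a cell and each line a median; the megakaryocyte-lineage cells have the highest median for all 6 genes, and Pf4 has the most points above 0 among the remaining cells.

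Against the 2912 other coculture cells, 9082 genes reached 10 CPM in at least 1 of the groups and were compared. Of these, 1458 (16.1%) were at least 2-fold higher in the megakaryocyte-lineage cells and 1303 (14.3%) at least 2-fold lower; the median log2 ratio over the 9082 genes was 0.24. Scaled by TMM factors in place of total UMIs, every ratio was lower by 0.33, with 918 higher and 1693 lower, so the higher share of these calls was 35.2% in place of 52.8%. Below, "higher" and "lower" of a list's genes mean at least 2-fold, and the list's median stands beside the 0.24 of all genes. A gene that reached the minimum only in the group where it was high was bound to differ, so list counts are given as descriptions.

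All 4 genes of the glycoprotein Ib-IX-V complex were higher. Gp1bb, the gene of the rule, had 798 CPM, against 1.11 in the other cells. Gp1ba, which codes for the chain that holds the von Willebrand factor site, had 91.8 CPM (95% Poisson interval 79.5 to 105), against 0.966, a log2 ratio of 6.57 (95% interval 5.98 to 7.22). Gp9 had 105 CPM, against 1.30, and Gp5 157 CPM, against 3.08. UMIs of Gp1ba were found in 68 of the 93 cells, of Gp9 in 51 and of Gp5 in 77, so the partners of Gp1bb were not detected in every cell. Sept5 overlaps Gp1bb on the same strand of chromosome 16, but had 1.84 CPM in the megakaryocyte-lineage cells and 1.82 in the other cells. Of the other cells, 70 shared the cluster of the megakaryocyte-lineage cells. Without those 70, the log2 ratio was 8.41 for Gp1ba, 7.02 for Gp9 and 6.41 for Gp5, in place of 6.34 and 5.67 for Gp9 and Gp5, and with cells weighted equally that of Gp5 was 6.53.

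Of 18 platelet adhesion and activating receptors listed, 13 were compared, of which 10 were higher, 1 lower and 2 between, the list's median log2 ratio being 3.03. That median was 4.14 at a minimum of 50 CPM and 2.29 with no minimum beyond 10 UMIs. Treml1 had 348 CPM (324 to 374), against 1.49 in the other cells, a log2 ratio of 7.87 (7.41 to 8.37). Itga2b and Itgb3 together make integrin αIIbβ3, the fibrinogen receptor. Itga2b had 1707 CPM, against 81.8, and was found in all 93 cells. Itgb3 had 656 CPM (622 to 691), against 11.2, a log2 ratio of 5.87 (5.69 to 6.05), and was found in 91 cells. Clec1b, the podoplanin receptor CLEC-2, had 90.0 CPM, against 0.632. Esam, an adhesion molecule of endothelium and platelets, had 168 CPM, against 1.86. The single lower gene was Fcer1g, the signalling chain shared by Fc receptors and glycoprotein VI, at 299 CPM, against 903. Gp6 itself stood at 9.64 CPM, under the 10 CPM minimum, against 0.186. Cd9, a tetraspanin used as a platelet marker, differed little, at 577 CPM against 366.

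The receptors were also compared at equal depth. With each cell thinned to 2000 UMIs, Itga2b was detected in 90.3% of the megakaryocyte-lineage cells (82.4% to 95.5%, Clopper-Pearson) and 9.86% of the other cells. Itgb3 was detected in 67.7% (57.3% to 77.1%), against 2.19%, and Treml1 in 39.8% (29.8% to 50.5%), against 0.151%. In 82 granulocyte-monocyte progenitor cells of the same library, chosen by Elane, Prtn3 and Mpo UMIs and with a median of 19097 UMIs unthinned, Itga2b was detected in 2.44% after thinning and Itgb3 and Treml1 in none. The unthinned shares were 97.8% for Itgb3 and 91.4% for Treml1 in the megakaryocyte-lineage cells, and 5.98% and 0.515% in the other cells.

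Leaving the 70 cells of the same cluster out of the other cells raised the receptor ratios. Without them, the log2 ratio of Treml1 became 11.15, of Itgb3 6.50 and of Itga2b 4.69. With each cell weighted equally instead of by its UMIs, Treml1 stood at 8.57, and with a minimum of 5 Gp1bb UMIs at 7.24.

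Alpha granule genes were split. Of 24 listed, 20 were compared, of which 9 were higher, 8 lower and 3 between, the list's median log2 ratio being 0.65, which became 0.08 when eosinophil granule-rich cells were left out of the other cells. The higher ones were platelet genes. Pf4, the chemokine CXCL4, had 18415 CPM in the megakaryocyte-lineage cells, against 472 in the other cells, a log2 ratio of 5.29 (5.26 to 5.32), and the 93 cells held 76.0% of all Pf4 UMIs in the library. Ppbp, the precursor of the platelet chemokine CXCL7, had 584 CPM, against 69.5. Vwf, von Willebrand factor, had 281 CPM (259 to 304), against 2.23. With cells weighted equally, the log2 ratio of Pf4 was 5.90, that of Ppbp 3.93 in place of 3.07, and that of Vwf 7.70 in place of 6.98, and without the 70 cells of the same cluster that of Vwf was 8.03. Mmrn1, the carrier of platelet factor V, had 180 CPM, against 1.11. Selp, P-selectin, had 151 CPM, against 5.05, and the protease inhibitor gene Serpine2 had 444 CPM, against 25.01. Other cargo genes, which leukocytes also express, were lower. Thbs1, thrombospondin 1, had 20.7 CPM, against 1480, a log2 ratio of -6.16. Srgn, the granule proteoglycan serglycin, had 1120 CPM, against 3942, and F13a1, the coagulation factor XIII A chain, had 46.8 CPM, against 102. Ccl5 had 1.84 CPM, against 197. Timp1 had no UMI in the megakaryocyte-lineage cells, against 41.3 CPM, which is at least 30.0-fold lower at a floor of 3 UMIs for the group. Tgfb1 had 595 CPM, against 345, under the 2-fold limit.

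Pf4 detection reached well outside the 93 cells. After thinning to 2000 UMIs it was found in 84.9% of the megakaryocyte-lineage cells (76.0% to 91.5%), 13.8% of the other cells and 1.22% of the progenitor cells. The share in other cells was thus not uniform between cell groups.

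Granule assembly genes, 15 of 17 compared, gave 6 higher and 2 lower, the list's median log2 ratio being 0.69. Slc35d3, needed for dense granules in mice, had 144 CPM, against 0.855, a log2 ratio of 7.40. The granule transport GTPase genes Rab27b and Rab38 had 265 and 314 CPM in the megakaryocyte-lineage cells, against 19.7 and 49.6 CPM in the other cells. Lyst, a lysosome trafficking regulator, was lower at 5.51 CPM, against 28.9. Nbeal2, whose loss causes gray platelet syndrome, differed little at 24.8 CPM, against 23.7.

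Of 12 agonist receptor genes, 7 reached the minimum, and 7 of these 7 were higher, the list's median log2 ratio being 3.46, which was 2.81 with cells weighted equally or at a minimum of 50 CPM and 2.31 with no minimum beyond 10 UMIs. P2ry12, an ADP receptor among the others, had no UMI in the 93 cells. F2rl3, the thrombin receptor PAR4, had 21.1 CPM, against 0.929. F2rl2, its cofactor PAR3 in mouse platelets, had 138 CPM, against 11.9. Tbxa2r, the thromboxane receptor, had 23.0 CPM, against 1.75, and Ptger3, a prostaglandin E2 receptor, had 166 CPM, against 15.05. Of 28 platelet signalling genes, 26 were compared, of which 14 were higher, 1 lower and 11 between, the list's median log2 ratio being 1.25. Mrvi1, a target of cGMP-dependent kinase, had 68.9 CPM, against 0.780, and Gnaz, a G protein alpha subunit of platelets, had 36.7 CPM, against 0.706. The G protein regulators Rgs18 and Rgs10 had 358 and 786 CPM in the megakaryocyte-lineage cells, against 35.4 and 78.4 CPM in the other cells. Rap1b, the GTPase that acts on integrins, had 1391 CPM, against 169.

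Eicosanoid enzymes were split. Of 12 listed, 9 were compared, of which 3 were higher, 3 lower and 3 between, the list's median log2 ratio being 0.68. Tbxas1, thromboxane synthase, had 303 CPM, against 53.4, and Pla2g4a, the phospholipase that frees arachidonic acid, had 128 CPM, against 21.3. Alox12, the platelet lipoxygenase, had 11.5 CPM, against 0.0743 from 2 UMIs, a log2 ratio of 7.27 with a wide interval of 5.27 to 10.39. The leukotriene genes were lower, with Ltc4s at 4.59 CPM, against 70.5, and Alox5ap at 314 CPM, against 825. Ptgs1, the cyclooxygenase of platelets, had 140 CPM, against 87.4, and Ptgs2 had no UMI in the megakaryocyte-lineage cells, against 21.8 CPM.

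**Figure D2:**
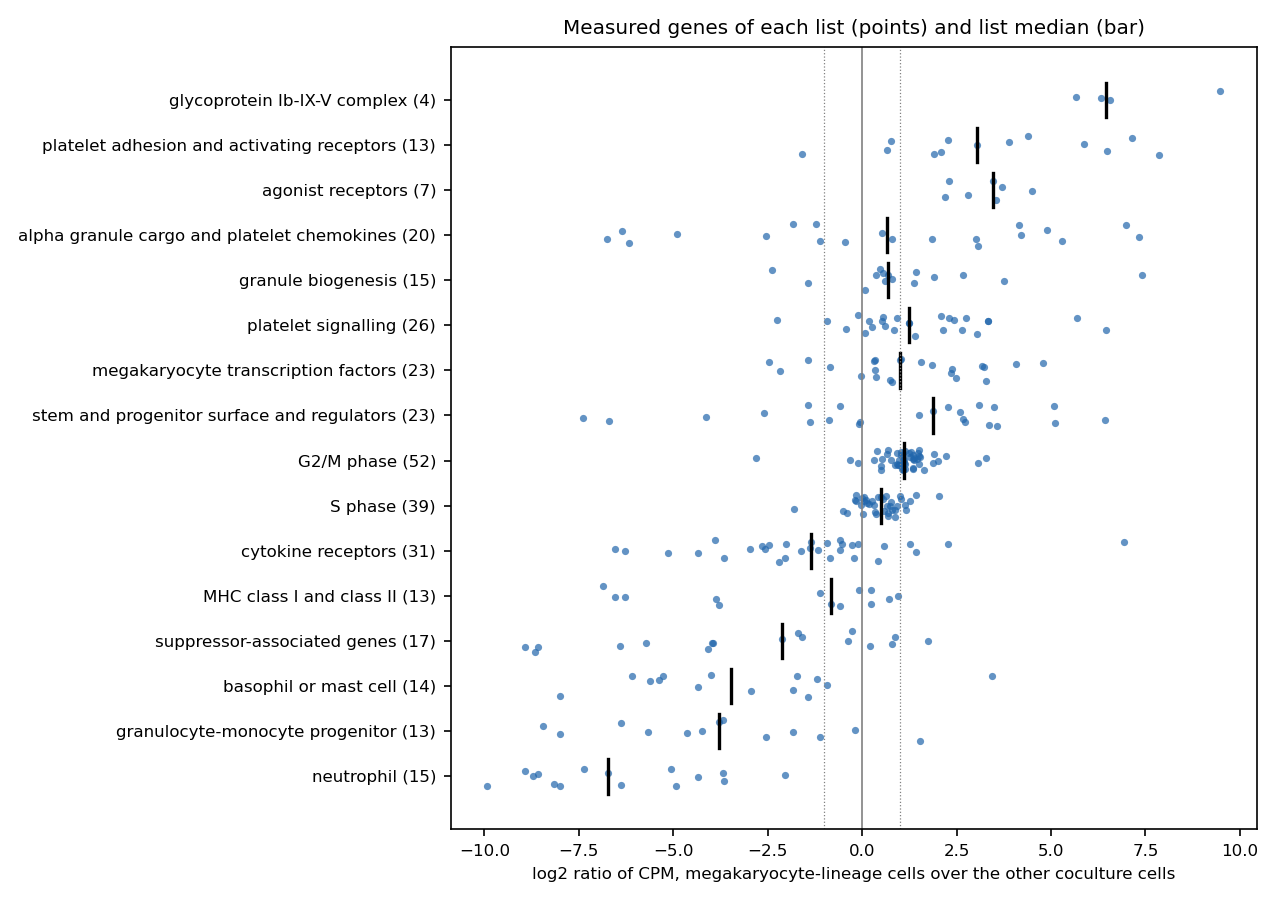
Log2 ratio of megakaryocyte-lineage over other coculture cells (axis, no unit) for the compared genes of 16 gene lists; each point is a gene, each bar the median of its list, and dotted lines mark a 2-fold difference. The glycoprotein Ib-IX-V, receptor and agonist receptor lists have medians of 6.45, 3.03 and 3.46, and the neutrophil list has a median of -6.72. The glycoprotein Ib-IX-V list includes Gp1bb, which set the members and was thus bound to be high.

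Of 23 megakaryocyte transcription factors, 11 were higher, 3 lower and 9 between, the list's median log2 ratio being 0.99. Zfpm1, the GATA1 partner FOG1, had 311 CPM, against 18.3. Gata1 had 152 CPM (136 to 169), against 15.7, a log2 ratio of 3.28, and was found in 85 of the 93 cells. Its ratio was 4.04 when eosinophil granule-rich cells were left out of the other cells. Fli1 had 273 CPM, against 52.3, Tal1 143 CPM, against 15.9, and Meis1 146 CPM, against 15.5. Gfi1b, a repressor needed for megakaryocytes and red cells, had 92.3 CPM, against 18.1. Runx1 differed little at 177 CPM, against 142, as did Nfe2, a regulator of platelet release, at 133 CPM, against 79.2. Gata2, which is also a basophil and mast cell factor, was lower at 111 CPM, against 301, a log2 ratio of -1.44. It was higher than in the progenitor cells, at 16.4 CPM, and lower than in 379 basophil cells chosen by Mcpt8 and Prss34 UMIs, at 887 CPM.

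Transcription factors of other lineages ran the opposite way, with 14 of 17 compared, 1 higher and 13 lower, the list's median log2 ratio being -3.43. Cebpe, of late granulocytes, had 1.38 CPM, against 482, Cebpa 1.38 CPM, against 51.6, and Spi1, the myeloid and B cell factor PU.1, had 62.0 CPM, against 300. Klf1, the erythroid Krüppel-like factor, was the higher gene at 11.9 CPM, against 3.34. Red cell genes were few but uneven. Of 23 listed, 10 were compared, of which 6 were higher, 1 lower and 3 between, the list's median log2 ratio being 2.05. Sptb, erythroid beta spectrin, had 17.4 CPM, against 0.409, Hemgn, a nuclear protein of haematopoietic cells, 34.9 CPM, against 1.04, and Car2, carbonic anhydrase 2, 240 CPM, against 41.4. Epor, the erythropoietin receptor, had 18.4 CPM, against 3.83. The defining red cell genes Hba-a1, Hba-a2, Alas2 and Car1 had no UMI in the 93 cells, and the transferrin receptor gene Tfrc had a log2 ratio of -2.11. The beta globin gene Hbb-bt had 298 CPM, against 225 in the other cells and 847 in the basophil cells.

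Stem and progenitor genes were mostly higher, with 23 of 27 compared, 13 higher, 6 lower and 4 between, the list's median log2 ratio being 1.87. Cd34 had 824 CPM (786 to 863), against 23.7, a log2 ratio of 5.12 (4.99 to 5.25), and was found in 88 of the 93 cells. Its ratio was 6.01 without the 70 cells of the same cluster and 5.84 with cells weighted equally. After thinning it was detected in 65.6% of the megakaryocyte-lineage cells (55.0% to 75.1%), 2.34% of the other cells and 3.66% of the progenitor cells. Pdzk1ip1, a membrane protein gene active in stem cells, had 662 CPM, against 7.69, and Mycn, a MYC family factor, had 132 CPM, against 3.90. Adgrg1, the stem cell receptor GPR56, had 589 CPM, against 52.1, and Ctla2a, a protease inhibitor gene, had 3743 CPM, against 314. Several surface genes of stem or early progenitor cells were low. Procr, the protein C receptor, had 1 UMI in the 93 cells, or 0.459 CPM, against 48.0, a log2 ratio of -6.71 (-12.01 to -4.23). Kit had 4.13 CPM, against 10.8, Emb 5.05 CPM, against 841, and Cd48 4.13 CPM, against 71.9. Flt3 had no UMI, against 9.07 CPM.

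Cytokine receptors were mostly lower or within 2-fold. Of 34 listed, 31 were compared, of which 4 were higher, 17 lower and 10 between, the list's median log2 ratio being -1.34, and -2.02 at a minimum of 50 CPM. The receptor for interleukin 11, Il11ra1, had 48.7 CPM, against 18.2, and Il6st, the chain shared by interleukin 6 family receptors, had 44.5 CPM, against 18.5. Both chains of the GM-CSF receptor, which binds the cytokine of the culture, had less CPM, though Csf2rb by less than 2-fold. Csf2ra, the specific chain, had 20.2 CPM, against 80.9, and Csf2rb, the shared signalling chain, 303 CPM, against 550. Csf2rb2, which codes for a beta chain of the mouse interleukin 3 receptor, had 166 CPM, against 112. Csf1r, the M-CSF receptor, had 0.918 CPM, against 71.0, and Csf3r, the G-CSF receptor, had no UMI, against 28.1 CPM. Among 23 cytokine signalling genes, 3 were higher, 8 lower and 12 between, the list's median log2 ratio being -0.26, and under TMM scaling 1 was higher and 9 lower. The feedback inhibitor genes Socs1, Socs2 and Cish had log2 ratios of -4.38, -3.75 and -2.45, and Socs3 had 184 CPM, against 76.5.

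Cytoskeletal and proplatelet genes differed less as a list, with 26 of 30 compared, of which 6 were higher, 3 lower and 17 between, the list's median log2 ratio being 0.51. Vcl, vinculin, had 78.0 CPM, against 10.1, Lims1, of focal adhesions, 415 CPM, against 62.8, Mylk, myosin light chain kinase, 70.7 CPM, against 13.2, and Tpm1, tropomyosin, 246 CPM, against 50.1. Tubb1, the beta tubulin of platelets, had no UMI in any kept coculture cell, and Myl9, a myosin light chain gene of platelets, had none in the 93 cells. Whether Tubb1 RNA could be captured and counted in this library was not tested. At the 2178320 UMIs summed over the 93 cells, a count of 0 allows up to 1.38 CPM.

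Cell cycle genes separated by phase. Of 52 G2/M genes, 35 were higher, 1 lower and 16 between the megakaryocyte-lineage and other cells, the list's median log2 ratio being 1.11, while of 39 S phase genes 7 were higher, 1 lower and 31 between, with a median of 0.50. Over all compared genes 16.1% were higher and 14.3% lower, and the S phase share of higher genes was close to that. Under TMM scaling, 19 of 52 G2/M and 2 of 39 S phase genes were higher, beside 918 of all 9039 genes compared. With cells weighted equally the G2/M median was 1.85. Psrc1 and Ckap2l, spindle genes, had 111 and 168 CPM in the megakaryocyte-lineage cells, against 11.3 and 19.9 CPM in the other cells. Ect2, needed for cytokinesis, was the lower gene at 1.84 CPM, against 12.8. Mki67, a proliferation marker, had 389 CPM (364 to 416), against 151, and Top2a, topoisomerase 2, 382 CPM, against 210. The log2 ratio of Mki67 was 1.37, and 2.12 with cells weighted equally. In S phase, Rrm2, a subunit of ribonucleotide reductase, was lower at 27.1 CPM, against 95.2, and E2f8, an atypical E2F repressor, was higher at 70.2 CPM, against 17.1.

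The progenitor cells, in which division genes were also detected, gave a comparison at closer depth. Against them 8649 genes were compared, of which 2301 (26.6%) were higher and 902 (10.4%) lower in the megakaryocyte-lineage cells, and their median log2 ratio was 0.35. Of 52 G2/M genes, 21 were higher, 1 lower and 30 between, with a median of 0.88. Of 41 S phase genes, 5 were higher, 5 lower and 31 between, with a median of -0.28. After thinning to 2000 UMIs, Mki67 was detected in 40.9% of the megakaryocyte-lineage cells (30.8% to 51.5%), 12.01% of the other cells and 25.6% of the progenitor cells. Rrm2 was detected in 9.68% (4.52% to 17.6%), against 8.12% of the other cells and 34.1% of the progenitor cells. Cdk1, the mitotic kinase, was detected in 26.9%, against 8.76% and 26.8%. Phase was read from these gene levels alone, and DNA content was not measured.

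Of 24 compared genes tied to polyploid cycles, 7 were higher and 4 lower, the list's median log2 ratio being 0.65. Over all compared genes 16.1% were higher and 14.3% lower, and under TMM scaling 5 of the 24 were higher and 4 lower. Cdk6 had 685 CPM, against 114, and Cdkn2d, the p19 inhibitor of CDK4 and CDK6, 366 CPM, against 84.0. Ccnd2, cyclin D2, had 42.2 CPM, against 205, and Ccne1, cyclin E1, which is known to promote endocycles in megakaryocytes, had 2.30 CPM, against 15.5.

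**Figure D3:**
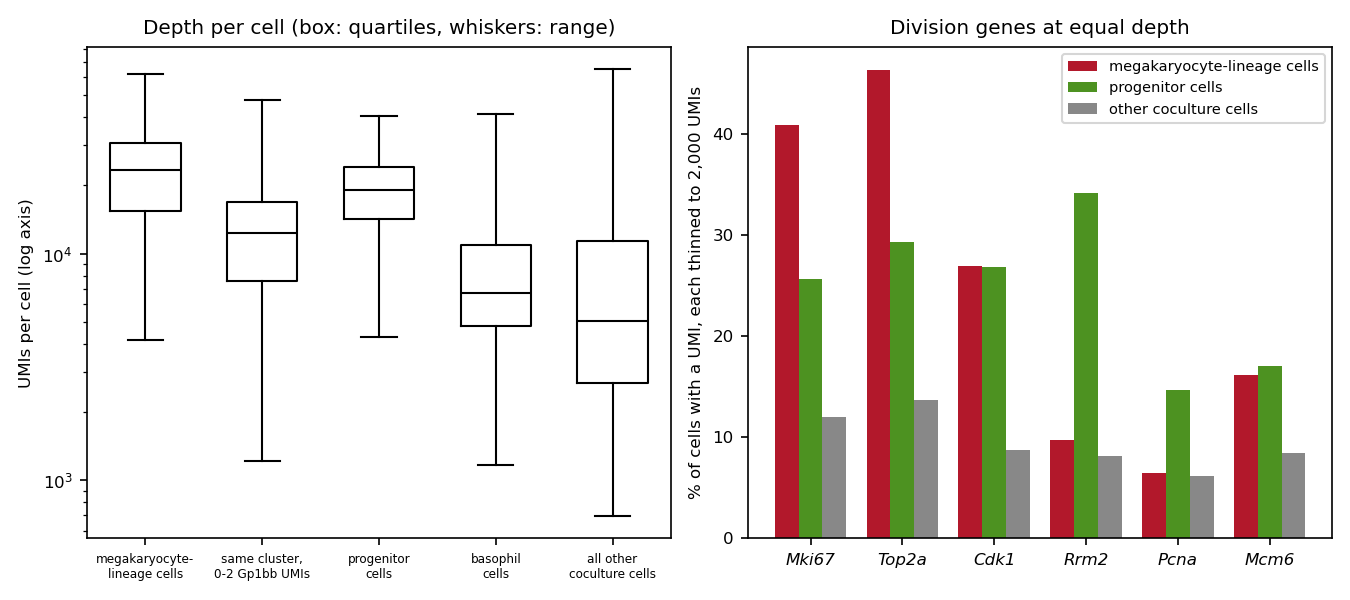
Left, UMIs per cell (log axis) as boxes for the 93 megakaryocyte-lineage cells, the 70 cells of their cluster under the minimum, the progenitor, basophil and remaining coculture cells; right, percent of cells with a UMI after thinning to 2,000 UMIs for 6 division genes in the megakaryocyte-lineage, progenitor and other cells. The megakaryocyte-lineage cells have the deepest median, 23431 UMIs, and lie above the progenitor cells for Mki67 and Top2a but below them for Rrm2.

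Over all genes, the 20 with the highest ratio over the other cells included Gp1bb, the gene of the rule. They also included the platelet or megakaryocyte genes Treml1, Slc35d3, Mmrn1, Clec1b, Vwf, Gp1ba and Esam. The highest was Serpina3b, a serine protease inhibitor gene, at 192 CPM, against 0.186, a log2 ratio of 10.02 (8.78 to 11.65). Gucy1a3 and Gucy1b3, the subunits of the nitric oxide receptor guanylate cyclase, were both among the 20, at 160 and 164 CPM in the megakaryocyte-lineage cells and 1.37 and 1.23 CPM in the other cells. Sdpr, a caveolae protein gene, had 223 CPM, against 1.15, Clca3a1, of a chloride channel regulator family, 177 CPM, against 1.04, Atoh8, a basic helix-loop-helix factor, 137 CPM, against 0.818, and Ackr1, the Duffy chemokine receptor, 357 CPM, against 3.38. Robo3, Abca4, Chad and Mrvi1 were also among the 20, with log2 ratios of 6.46 to 6.85. The 10 lowest genes included Mmp8, a neutrophil collagenase, with 1 UMI or 0.459 CPM, against 445, a log2 ratio of -9.92 (-15.22 to -7.44), and Cd14, the monocyte endotoxin receptor, with 0.459 CPM, against 290. S100a9 had 12.4 CPM, against 6021.

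The leading genes differed by comparison. Over the progenitor cells they included, after Gp1bb, Pf4 at 18415 CPM, against 17.0, Gm15915 at 378 CPM, against 0.630, Itgb3 at 656 CPM, against 1.26, and Col18a1 at 234 CPM, against 0.630. Those lowest against them included Elane at 3.67 CPM, against 12778, a gene used to choose the progenitor cells. Over the basophil cells, 8802 genes were compared, with 2120 (24.1%) higher and 1122 (12.7%) lower, and their median log2 ratio was 0.44. Vwf led after Gp1bb, at 281 CPM, against 0.290 from 1 UMI, a log2 ratio of 9.92 (7.43 to 15.22), followed by Serpina3b and Mmrn1. Lowest were Akr1c18, a hydroxysteroid dehydrogenase gene, at 0.459 CPM, against 816, and Prss34, a basophil protease gene and part of the basophil rule, at 13.8 CPM, against 18264. Of 8 agonist receptors compared in each case, 7 were higher and 1 lower against the progenitor cells, and 3 higher, 1 lower and 4 between against the basophil cells. That difference between the comparisons was not tested.

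Markers of other cell types were mostly lower, but not those of red cells. Of 10 red cell genes compared, 6 were higher and 1 lower, with a median log2 ratio of 2.05. Of the compared genes, 0 of 7 eosinophil, 0 of 15 neutrophil, 0 of 13 monocyte or macrophage, 0 of 9 dendritic, 0 of 14 B lineage and 0 of 3 T or NK genes were higher. The eosinophil genes include Prg2, Epx and Prg3, which the rule capped, although that cap removed 0 cells. Of 13 granulocyte-monocyte progenitor genes, 1 was higher (Cst7, at 359 CPM against 123), 11 lower and 1 between, the list's median log2 ratio being -3.78. Of 13 stromal or endothelial genes, 6 of them the matrix genes of the rule, 3 were compared, with Kdr higher at 19.3 CPM, against 1.67, Sparc lower at 5.51 CPM, against 28.1, and Pecam1 between at 131 CPM, against 122. Their median log2 ratio was 0.10, and -1.06 under TMM scaling with 4 genes compared. The stromal or endothelial list took 0.0159% of UMIs in the megakaryocyte-lineage cells and 0.0187% in the other cells. The summed neutrophil list took between 0% and 0.0749% of the UMIs of each megakaryocyte-lineage cell with a median of 0.0104%, against a median of 0.0300% and a highest value of 43.2% in the other cells. Basophil and mast cell genes gave 1 higher and 12 lower of 14, the list's median log2 ratio being -3.47. Their summed share had a median of 0.381% and a highest value of 3.69% in the megakaryocyte-lineage cells, against 1.27% and 18.0% in the other cells. In 85 of the 93 cells every list of another mature lineage stayed within 2% of UMIs. With Ifitm1, Srgn and Gata2 left out of these lists, 0 of the 93 cells passed 2% and 92 stayed within 0.5%. The 0.5% count does not cover the red cell list, whose share of a cell's UMIs reached 0.760%.

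Fcer1a was the exception in the basophil list. It codes for the alpha chain of the high-affinity IgE receptor and had 322 CPM in the megakaryocyte-lineage cells, against 29.7 in the other cells and 135 in the basophil cells, a log2 ratio of 3.44 over the other cells. Tpsb2, a mast cell tryptase gene, had no UMI in the 93 cells, against 93.8 CPM in the other cells, at least 68.1-fold lower. Fcer1a was found in 44 of the 93 cells. The highest 5 held 51.0% of its UMIs.

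MHC class II, immune and suppressor genes were mostly lower than in the other coculture cells. Of 13 MHC genes, 0 were higher, 6 lower and 7 between, the list's median log2 ratio being -0.82. The class II genes H2-Aa and H2-Ab1 had 9.18 and 48.7 CPM in the megakaryocyte-lineage cells, against 1072 and 705 CPM in the other cells, while the class I gene H2-K1 had 1103 CPM, against 932. Of 24 compared genes listed for immune-type megakaryocytes, 0 were higher, 20 lower and 4 between, the list's median log2 ratio being -4.27. Lsp1, a leukocyte actin-binding protein gene, had a log2 ratio of -8.68, and Lgals3, galectin 3, of -7.43. The genes of the sort antigens were nearly absent, with Itgam (CD11b) at 0.918 CPM, against 156, and Ly6c2 at 0.918 CPM, against 105. Of 17 suppressor genes of myeloid cells, 1 was higher, 11 lower and 5 between, the list's median log2 ratio being -2.13. Arg1, arginase 1, had 1.84 CPM, against 744, and S100a8 17.0 CPM, against 6481. The higher gene was Lgals9, galectin 9, at 299 CPM, against 89.9. The progenitor cells were a second comparison, in which 26.6% of all compared genes were higher and 10.4% lower, with a median log2 ratio of 0.35. Against the progenitor cells, 4 of 10 MHC genes were higher and 0 lower, with a median of 0.86. Of 11 suppressor genes 4 were higher and 3 lower (median 0.66), and of 20 immune-type genes 4 were higher and 10 lower (median -0.78). Against the basophil cells the MHC, suppressor and immune-type medians were -0.40, -1.44 and -3.65, beside 0.44 over all genes.

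Glycolysis and hypoxia genes tended lower. Of 23, 1 was higher, 8 lower and 14 between, the list's median log2 ratio being -0.84, and under TMM scaling 1 was higher and 13 lower. Ero1l, an oxidase of protein folding, had 64.7 CPM, against 547, Hk2, hexokinase 2, 11.5 CPM, against 86.2, and Hif1a 36.7 CPM, against 211. Slc2a3, the glucose transporter GLUT3 of platelets, was the higher gene at 225 CPM, against 88.7. Of 18 lipid and phospholipid genes, 5 were higher, 3 lower and 10 between, the list's median log2 ratio being 0.39. Plek, pleckstrin, had 383 CPM, against 52.1, and the desaturase gene Fads2 26.6 CPM, against 6.06.

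The 93 cells varied widely among themselves. In UMIs per 10,000 of each cell, Gp1bb ran from 0.964 to 37.5 with a median of 6.06. Itgb3 had a median of 6.72 and a highest value of 41.5, with 2 cells at 0. Treml1 had a median of 2.89 and a highest value of 11.2, with 8 at 0, and Cd34 had a median of 6.26 and a highest value of 39.8, with 5 at 0. Pf4 had a wide spread, with quartiles of 26.8 and 286 about a median of 114, and a highest value of 727. In raw UMIs, 10 cells had no Pf4, 60 had at least 100 and 12 at least 1000. Outside the 93 cells the highest Pf4 count was 335 UMIs, and 30 cells had at least 100. Ppbp was detected only together with Pf4. In 57 cells both were present, in 26 Pf4 alone, in 0 Ppbp alone and in 10 neither.

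Several platelet genes varied together across the cells, and some other genes varied opposite to them. Across the 93 cells, which share 1 library and differ in depth, the Spearman rank correlation of per-10,000 values was 0.86 for Pf4 with Ppbp, 0.67 for Pf4 with Itgb3 and 0.73 for Itgb3 with Rab27b. The genes most like Gp1bb, of 6603 found in at least 30% of the cells, were Serpina3b (0.62), Pf4 (0.61), Slain2 (0.56), Plek (0.56), Treml1 (0.54) and Itgb3 (0.54). Least like it were Cmtm7 (-0.58), Zfp36l2 (-0.56) and Ly6e (-0.53), and 5 of the 10 lowest were ribosomal protein genes, with Rpl12 at -0.52 and Rpl39 at -0.51. The same genes ran opposite to Pf4, with Ly6e at -0.73, Cmtm7 at -0.70 and Zfp36l2 at -0.66, as did Ifitm1, an interferon-induced membrane protein gene, at -0.61. Mki67 and Top2a varied together, at 0.81, and the correlation of Mki67 with Gp1bb was -0.04.

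**Figure D4:**
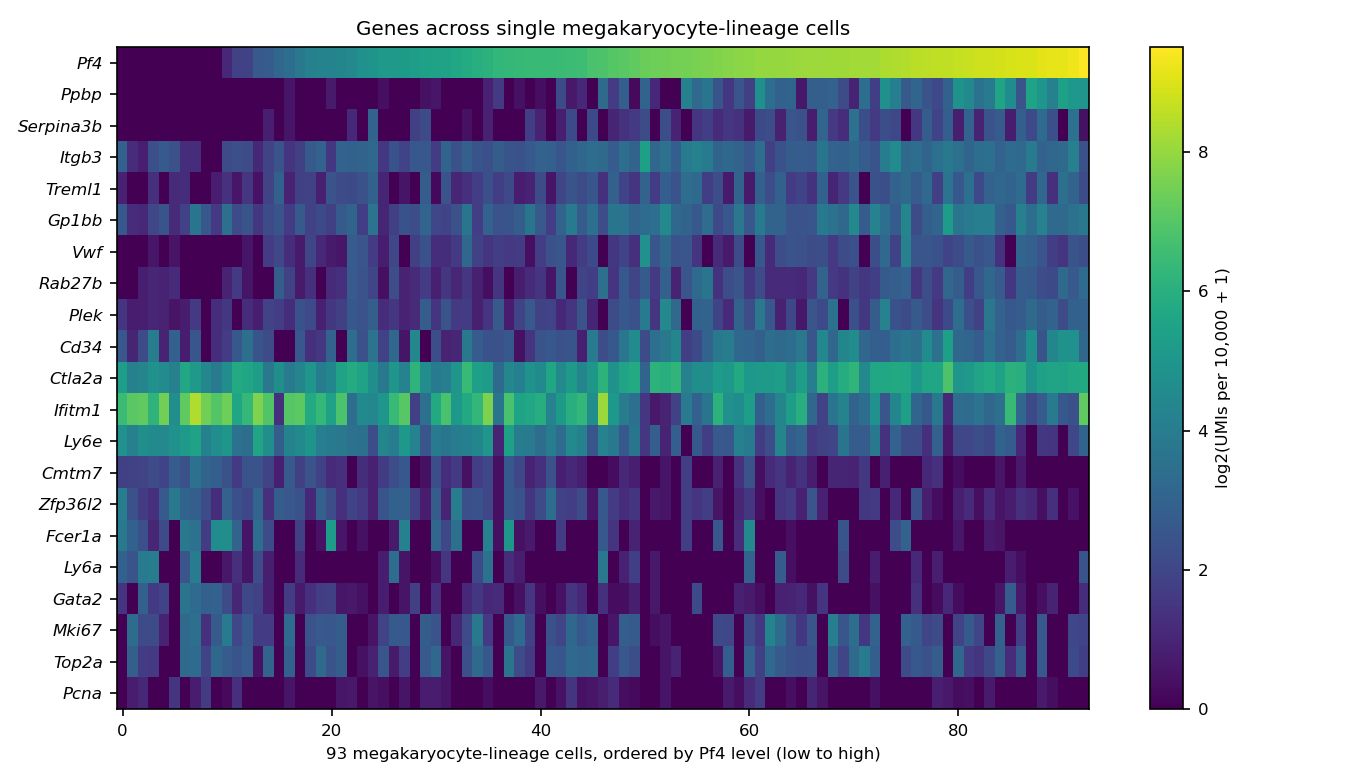
Heatmap of 21 genes (rows) in the 93 megakaryocyte-lineage cells (columns, ordered by Pf4), with colour as log2 of UMIs per 10,000 plus 1. Cells with high Pf4 have higher Ppbp, Itgb3 and Treml1, and those at the low-Pf4 end have higher Ifitm1 and Ly6e.

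The cells were also classed by UMIs of Gp1bb, the gene of the rule, which describes the same values and adds no separate support. Cells with 3 to 5 Gp1bb UMIs (22), 6 to 10 (22) and over 10 (49) had 4509, 11050 and 23752 CPM of Pf4. The same classes had 142, 274 and 418 CPM of Treml1, and 9674, 6647 and 3972 CPM of Ifitm1. Their median UMIs were 14158, 18010 and 28774, so depth moved with the class, and its part in these values was not tested. Cd34 was at 431, 688 and 954 CPM in the same classes.

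The 10 cells without Pf4 included the member outside the cluster, and the other 9 lay in the megakaryocyte cluster. Those 9 cells had 258 CPM of Itgb3 and 64.5 of Treml1, against 695 and 375 in the 83 cells with Pf4. Their Vwf was 12.9 CPM, against 306, and Serpina3b had no UMI, against 210 CPM. They were higher in Ifitm1, at 13106 CPM, against 4621, in Gata2, at 374 CPM, against 82.7, in the stem cell antigen gene Ly6a, at 523 CPM, against 95.7, and in Fcer1a, at 736 CPM, against 289. These classes were cut on a measured gene and describe ranges, not types.

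Fcer1a marked a similar side of the range. The 44 cells with an Fcer1a UMI had 10817 CPM of Pf4, 170 of Vwf, 82.3 of Serpina3b and 621 of Cd34. The 49 cells without had 25738 CPM of Pf4, 388 of Vwf, 298 of Serpina3b and 1020 of Cd34. Ifitm1 was at 8045 CPM in the cells with Fcer1a, against 2747 in those without, and Gata2 at 157 CPM, against 65.8. Median depth was alike in the classes, at 21612 UMIs with Fcer1a and 23826 without. In the cells with Fcer1a the globin gene Hbb-bt had 487 CPM, against 115. Without the members over 2% in a list of another mature lineage, the log2 ratio of Fcer1a over the other cells was 2.83.

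Cells with Mki67 had lower levels of some platelet genes. The 67 cells with a UMI of it had 590 CPM of Itgb3, 78.0 of Gp9 and 225 of Rab27b, against 910, 210 and 420 CPM in the 26 cells without. Pf4 was at 17955 CPM with Mki67, against 20192 without. The cells with Mki67 were deeper, with a median of 26414 UMIs, against 15726.

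The 70 cells that shared the cluster but had 0 to 2 Gp1bb UMIs had lower levels of the same genes. The megakaryocyte-lineage cells had 18415 CPM of Pf4, 1707 of Itga2b, 656 of Itgb3 and 824 of Cd34. The 70 cells had 1892 CPM of Pf4, 538 of Itga2b, 124 of Itgb3 and 338 of Cd34. Gata2 was lower in the megakaryocyte-lineage cells, at 111 CPM, against 240. The median depth of the 70 cells was 12363 UMIs, against 23431, and the part of depth in the boundary at 3 UMIs was not tested.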

How the data were processed

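Both libraries were sorted bone marrow cells run on the 10x Chromium platform with 3′ v2 chemistry. The deposited files hold UMI counts per gene and barcode, made by the authors with Cell Ranger and bcl2fastq on mm10, per the submitters' processing notes, with software version 3.1.0 per the file headers. For the annotation release and the rule for calling cells, the choice is not given in the sources used here. Of 47729 gene identifiers, 47224 matched GENCODE M21. Replicate cultures or animals are not given, so no comparison has a p-value.

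From the counts, UMIs were summed over the cells of a group and expressed as CPM with exact Poisson intervals. Ratios have exact conditional binomial intervals at the 95% level. PCR and free RNA are not covered by these intervals. Progenitor cells had at least 1% of UMIs in Elane, Prtn3 and Mpo, and basophil cells at least 0.5% in Mcpt8 and Prss34. Thinning drew 2000 UMIs per cell. Clusters used 2000 variable genes, 30 components, 15 neighbours and Leiden resolution 0.8 (scanpy 1.11.5, igraph 0.11.9). TMM factors came from edgeR 4.0.16 on the summed counts, with no test. Other work used python 3.11.15, numpy 2.4.6 and scipy 1.17.1. The ratio code was tested on simulated data, and the thinning code was not.

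The members and gene lists were chosen with earlier results of these data known. The genes named are those of the glycoprotein Ib complex, receptor, alpha granule, transcription factor and cytokine receptor lists, the 20 highest and 10 lowest genes at 50 CPM or more, 10 of each against progenitor and basophil cells, up to 4 genes of each other list, the 10 most correlated with Gp1bb and cluster leaders. Cmtm7, Zfp36l2, Ly6e, Rpl12, Rpl39, Cst7, the globin, Alas2 and Car1 genes, P2ry12, Fcer1a, Ifitm1, Ly6a, Mki67, Top2a, Cdk1, Tbxas1, Alox5ap, Rap1b, Tubb1, Myl9, Ctla2a, Adgrg1, Kit, Cd48, Flt3, Hbb-bt, Tfrc, Socs3, Nbeal2, Ptgs1, Sept5, Tyrobp, Cpa3, Slc2a3, H2-K1, Lgals9 and Cdkn2d were chosen after their values were seen. Alternatives are described in the closing section. Some of them were chosen after seeing the data. These left out the 70 neighbouring cells, the 1 member outside the cluster, or members over 0.5% in another mature lineage list. Some genes of the lists are not reported here by name.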

Additional observations from a re-analysis of the deposited data

How the results depend on the processing

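The number of members was 58 (1.93% of kept cells) when Gp1bb had to be at least 0.05% of UMIs, in place of 93 (3.09%), and between 79 and 98 under the other minimums and cell filters tried. Genes higher and lower than in the other cells numbered 539 and 513 when genes had to reach 50 CPM, and 3174 and 2321 when they only had to reach 10 UMIs, in place of 1458 and 1303; with TMM factors 918 were higher. The minimum sets how many genes are compared. Of 234 gene ratios recomputed for 18 genes, 170 moved by less than their interval, 64 moved further and 0 changed sign. Of 105 list medians, 97 stayed and 8 moved. Gata2 had a log2 ratio of -0.96 when eosinophil granule-rich cells were left out of the other cells. Moves of over 1.5 times stand beside their values above. The causes of these moves were not tested. No paired analysis was possible because each group has 1 library. Depth limits genes under about 1.38 CPM in the 93 cells.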

Other observations

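Pf4 outside the 93 cells was concentrated in few clusters. Of its UMIs in the other coculture cells, 72.0% lay in a cluster of 428 cells led by Stfa2, Stfa3 and BC100530, at 1666 CPM of Pf4 and 229 CPM of Ppbp. Another 13.5% lay in the 70 cells that shared the megakaryocyte cluster, and 11.9% in 71 cells led by Il22 and the complement genes C1qa, C1qc and C1qb, at 1426 CPM of Pf4 and 454 CPM of Ppbp.

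In the library without coculture, Pf4 stood at 67.6 CPM, Vwf at 33.2, Clec1b at 2.70 and Cd34 at 0.648. The sort gate, the coculture and the library differ between the groups, and the medium may differ. The parts of these cannot be told apart.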
